A study of Mus musculus with 20 samples.

Results

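The transcripts described here encode the subunits of RNA polymerase II (Pol II) and of the Mediator complex. They were chosen by gene symbol, as every row of the count table whose symbol begins with Med and a digit, the rows Polr2a to Polr2m, and Cdk8, Cdk19 and Ccnc. The rule found 47 of the 24421 genes listed, of which 31 have a Med symbol, 13 are Polr2 genes and 3 are the kinases and cyclin of Mediator. One of the 31, Med9os, is an antisense transcript beside Med9 and no subunit, and its level lay between 0 and 0.113 CPM (counts scaled to a common library size after TMM normalization) over all libraries, so it was not tested. The other 46 were.

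RNA-seq was performed on bone marrow-derived dendritic cells (BMDCs) of 5 mice, each of which gave 1 library in each of 4 groups, 20 libraries in all. Marrow cells had grown for 8 days with 40 ng/mL GM-CSF, a growth factor that drives myeloid cells towards dendritic cells, and all groups share this culture. In DMSO Ova the cells received solvent and soluble ovalbumin, and in DMSO IC solvent and ovalbumin bound by IgG in immune complexes, which cross-link Fc receptors. The groups iBET Ova and iBET IC received the same stimuli with I-BET151 at 3.3 µM, a small molecule that blocks the bromodomains of BET proteins. Stimulation lasted 4 hours, and the sources differ on whether iBET was given together with the stimulus or shortly before it. A solvent percentage, 5% DMSO, appears only in the labels of DMSO Ova and DMSO IC. Whether cells given iBET received as much solvent cannot be read from the labels. The part of solvent dose in the comparisons of iBET with DMSO was not tested. The mice are of the C57BL/6 strain as the methods describe them, and the libraries are named by mouse, A to E.

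Pol II makes all messenger RNA precursors. Its catalytic cleft lies between the RPB1 and RPB2 subunits, encoded by Polr2a and Polr2b, and several of its small subunits also belong to Pol I and Pol III. Mediator is the large complex that carries signals from DNA-bound factors to Pol II at promoters, and it is built of head, middle and tail modules held together by MED14, with a separable kinase module of CDK8 or CDK19, cyclin C, MED12 or MED12L and MED13 or MED13L. BET proteins meet both complexes at active enhancers and promoters, where they are known to help release paused Pol II.

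Libraries held between 16447491 and 29245150 counts on genes. The dendritic cell label was checked against 8 markers, of which Itgax (CD11c) lay between 1718 and 2725 CPM and H2-Ab1 (MHC class II) between 185 and 566 CPM, while Cd209a stayed under 1 CPM in every library and Flt3 lay between 0.121 and 4.94 CPM. The summed level of 5 macrophage markers, of which none was at 0, was 1145 to 1671 CPM in DMSO Ova and 810 to 1137 CPM in iBET Ova, and 1200 to 1642 CPM in DMSO IC and 858 to 1260 CPM in iBET IC. These ranges were apart with Ova and overlapped with IC, and their part in the results below was not tested. The single markers did not all move alike. With Ova, 2 of the 5 macrophage markers were lower with iBET and 1 was higher (adjusted p under 0.05 in edgeR's quasi-likelihood test). Of the 8 dendritic cell markers 2 were lower and 0 higher by the same rule. The summed level of 4 mast cell or basophil markers did not exceed 2.8 CPM, that of 4 erythroid markers did not exceed 6.51 CPM and that of 5 neutrophil markers did not exceed 45.9 CPM. In bulk RNA, fewer cells with a transcript and less of it per cell cannot be told apart.

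Promoter sequences of RefSeq (GRCm38.p6), 300 bases around each annotated start, matched 39 of the 47 members. Of these, 4 are printed 5′ to 3′ because the results below turn on them: the 2 genes of the catalytic cleft, both of which rose with iBET, Med31, the Mediator gene with the largest rise, and Polr2m, the Pol II gene with the largest fall. They lie at chr11:69758584-69758883 on the minus strand (Polr2a), chr5:77310234-77310533 on the plus strand (Polr2b), chr11:72215543-72215842 on the minus strand (Med31) and chr9:71485934-71486233 on the minus strand (Polr2m, the first of its listed starts). Capitals mark matches, on either strand, to TATAAA (the TATA box), CCAAT (the CCAAT box), GGGCGG (the GC box), CCGGAAG (a core bound by ETS factors) and CACGTG (the E-box), and these 5 motifs do not overlap in the sequences shown.
Polr2a: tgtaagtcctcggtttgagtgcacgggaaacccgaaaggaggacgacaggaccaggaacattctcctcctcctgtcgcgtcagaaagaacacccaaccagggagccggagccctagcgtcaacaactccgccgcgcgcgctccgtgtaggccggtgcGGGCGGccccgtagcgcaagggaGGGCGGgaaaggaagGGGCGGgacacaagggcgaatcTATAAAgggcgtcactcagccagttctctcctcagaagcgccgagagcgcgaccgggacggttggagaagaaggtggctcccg
Polr2b: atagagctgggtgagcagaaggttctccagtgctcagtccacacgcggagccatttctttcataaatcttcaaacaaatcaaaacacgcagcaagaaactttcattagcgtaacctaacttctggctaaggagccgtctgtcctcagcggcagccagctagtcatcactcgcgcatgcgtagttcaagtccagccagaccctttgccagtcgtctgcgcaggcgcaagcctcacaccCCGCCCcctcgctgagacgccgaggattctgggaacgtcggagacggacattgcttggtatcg
Med31: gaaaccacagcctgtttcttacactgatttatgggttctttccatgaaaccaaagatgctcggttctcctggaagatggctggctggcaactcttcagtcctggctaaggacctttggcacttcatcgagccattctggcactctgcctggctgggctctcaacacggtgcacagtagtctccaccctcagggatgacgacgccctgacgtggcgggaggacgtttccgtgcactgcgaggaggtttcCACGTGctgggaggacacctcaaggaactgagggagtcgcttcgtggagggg
Polr2m: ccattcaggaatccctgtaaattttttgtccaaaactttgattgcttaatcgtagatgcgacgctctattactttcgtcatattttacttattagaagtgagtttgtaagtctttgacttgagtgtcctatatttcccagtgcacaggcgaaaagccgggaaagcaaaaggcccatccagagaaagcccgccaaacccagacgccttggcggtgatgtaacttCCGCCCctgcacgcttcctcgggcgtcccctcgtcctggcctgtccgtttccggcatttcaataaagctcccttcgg

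The Polr2a promoter held TATAAA, read on the strand of the gene, and 3 copies of GGGCGG, whereas the Polr2b and Polr2m promoters each held 1 match, to the GC box on the other strand. The Med31 promoter held 1 match, to CACGTG. Of the 39 member promoters 5 held TATAAA (12.8%), against 13.6% of all 32851 promoters and 7.11% of the promoters of tested genes. GGGCGG was found in 27 of 39 (69.2%, against 35.7% of all and 62.3% of those of tested genes), CCAAT in 14 (35.9%, against 37.4% and 37.7%), CCGGAAG in 10 (25.6%, against 8.86% and 17.7%) and CACGTG in 5 (12.8%, against 7.15% and 9.95%). The 39 promoters and the 27 with GGGCGG include that of Med9os, which is no subunit and was not tested. Its annotated start lies beside that of Med9, whose promoter also held GGGCGG. Among the members that rose with iBET under both stimuli, 12 had a promoter entry, and Polr2a was the 1 with TATAAA, while 9 had GGGCGG. All 6 promoters of members that fell under both stimuli held GGGCGG. These matches describe letters in a window and were not tested for binding.

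All 46 tested members were measured in every group, at levels that differed widely between subunits of the same complex. Per kilobase of annotated exon, which allows genes to be compared, the mean level of the Pol II subunits in DMSO Ova ran from 4.96 ± 0.242 CPM per kb for Polr2c to 35.2 ± 2.77 CPM per kb for Polr2g (SD, n = 5 mice). Polr2a (23.6 ± 8.77 CPM per kb), Polr2e, a subunit shared by all 3 polymerases (24.1 ± 1.76 CPM per kb), and Polr2m (34.7 ± 2.6 CPM per kb) were among the higher ones, and Polr2b lay at 14.6 ± 0.993 CPM per kb. In Mediator the highest were Med11 (16.5 ± 1.13 CPM per kb), a head subunit, and Med22, Med13 and Med13l, at 14.4, 14 and 14.4 CPM per kb, which lay within each other's spread. The lowest were Med12l (0.148 ± 0.0263 CPM per kb) and Med31 (1.72 ± 0.146 CPM per kb). Annotated exon length sums all isoforms, so these levels may understate genes with long unused exons.

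The first comparison asked what iBET does to these transcripts. With Ova, 14 members rose and 10 fell with iBET at an adjusted p under 0.05 in edgeR's quasi-likelihood test, and 22 did not pass. With IC, 15 rose, 12 fell and 19 did not pass. These shares are close to those of all genes: 24 of 46 members (52.2%) were called with Ova, against 56.6% of the 12465 genes tested, with 27.7% of genes higher and 28.9% lower, and 27 of 46 (58.7%) with IC, against 56.1%, with 27.1% of genes higher and 29.0% lower. The median log2 fold change of the members was 0.04 with Ova and 0.07 with IC, against -0.00 and -0.01 over all genes, and the median size without sign was 0.26 and 0.24, against 0.36 for all genes under either stimulus. The balance of rises and falls depended on the scaling. By library size alone, 14 members rose and 12 fell with Ova, and 11 rose and 13 fell with IC. Over all genes 3014 then rose and 4005 fell with Ova, and 2982 and 4024 with IC.

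The changed subunits were largely shared between the stimuli. With both Ova and IC, 14 members rose and 9 fell, 18 were called under neither, 1 (Cdk19) passed with Ova and 4 (Med20, Ccnc, Med28 and Polr2c) passed with IC. Over all genes, 23.9% rose and 25.2% fell under both stimuli and 36.4% were called under neither. Across the 46 members the log2 fold changes with Ova and with IC had a Pearson r of 0.98, as a description only, since both come from the same 5 mice, and 42 of 46 had the same sign. The 5 libraries of iBET did not overlap the 5 of DMSO for 17 members with Ova and 20 with IC (37% and 43.5%, against 38.0% and 42.8% of all genes). Without mouse D, 9 members rose with IC in place of 15, and the counts of those that fell ranged from 9 to 11 with any 1 mouse left out. The number of all genes called with IC was 6126 without mouse D, in place of 6990.

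**Figure D1:**
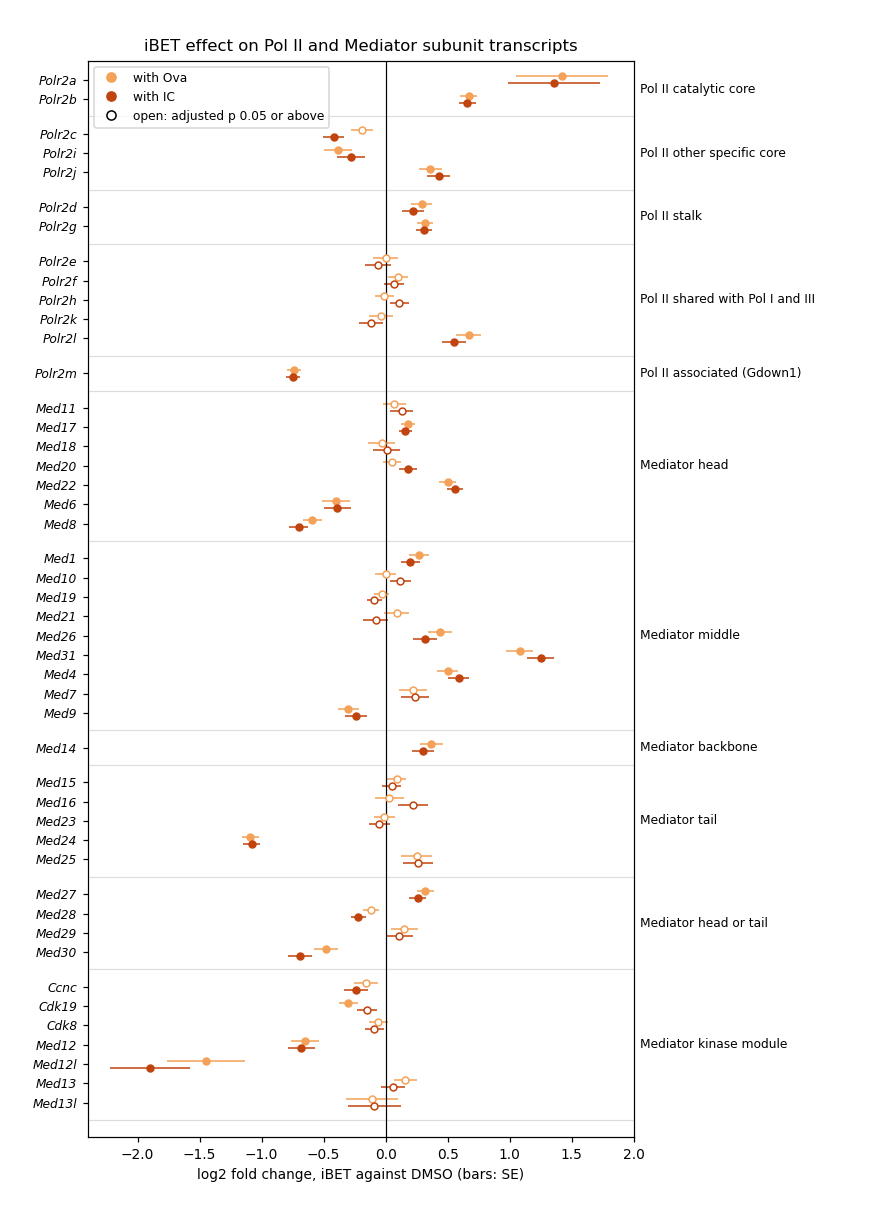
The plot shows, for each of the 46 tested members grouped by complex and module, the log2 fold change of iBET against DMSO with its SE, with Ova (light) and with IC (dark). Filled points passed an adjusted p of 0.05. The 2 catalytic genes lie to the right, the kinase module has no filled point to the right of 0, and Med31 and Med24 stand at 1.08 and -1.09 with Ova.

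Both genes of the catalytic cleft of Pol II rose. Polr2b (RPB2; chr5:77310147-77349324) was at 73.7, 70, 61.5, 66.2 and 70.2 CPM in mice A to E with DMSO Ova and at 116, 111, 103, 109 and 105 CPM with iBET Ova. The DMSO IC libraries were at 76, 73.8, 67.7, 70.5 and 69.9 CPM, and those of iBET IC at 125, 115, 107, 120 and 97.3 CPM. Every iBET library lay above every DMSO library under both stimuli. The log2 fold change was 0.67 with Ova (SE 0.0661, adjusted p = 4.36e-08) and 0.66 with IC (SE 0.066, adjusted p = 6.22e-08), in 5 of 5 mice each.

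Polr2a (RPB1, the largest subunit, which carries the heptad repeat tail phosphorylated during transcription; chr11:69733997-69758637) rose further, with a far wider spread. It was at 71, 157, 225, 219 and 161 CPM in mice A to E with DMSO Ova and at 506, 524, 517, 525 and 163 CPM with iBET Ova. With DMSO IC it was at 218, 153, 103, 52 and 141 CPM, and with iBET IC at 251, 245, 419, 284 and 520 CPM. The iBET IC libraries lay above all DMSO IC libraries, whereas with Ova mouse E had nearly equal levels with iBET and DMSO, and its iBET library lay within the DMSO range. The log2 fold change was 1.42 with Ova (SE 0.371, adjusted p = 0.0028) and 1.36 with IC (SE 0.371, adjusted p = 0.00394), or 2.68-fold and 2.58-fold. The log2 ratio of single mice lay between 0.02 and 2.83 under Ova and between 0.20 and 2.45 under IC.

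The level of Polr2a was set beside a property of the libraries, and the 2 went together in part of the groups only. Their relation was not tested. For each library the median log2 CPM of 3673 genes with over 6000 exon bases was set against that of 1059 genes with under 1500 exon bases, leaving out the members. Polr2a has 7067 exon bases. The long-minus-short value ran from 2.10 to 2.29 in DMSO Ova, 2.04 to 2.18 in DMSO IC, 2.18 to 2.54 in iBET Ova and 2.14 to 2.31 in iBET IC. The libraries with the least Polr2a in DMSO Ova (mouse A) and iBET Ova (mouse E) had the lowest value of their group, 2.10 and 2.18, and that with the least in DMSO IC (mouse D) shared the lowest value of 2.04 with mouse C. In iBET IC the library with the least Polr2a (mouse B) had 2.21, not the lowest value of its group. The library with the most Polr2a had the highest value of its group in iBET IC (mouse E, 2.31) but not in the other 3 groups. With this value as a covariate, an alternative chosen after the data were seen, the log2 fold change of Polr2a was 0.93 with Ova (adjusted p = 0.0217) and 0.82 with IC (adjusted p = 0.0539), so that the IC call was lost and the value fell to under 1. The value is computed from genes that may themselves change with iBET, so the covariate can take up part of an iBET effect. A call lost with it, here or for other members, cannot tell a library property from an effect of iBET. In mice A and B alone the change with IC was 0.44 (adjusted p = 0.267), and in mice C, D and E it was 2.07 (adjusted p = 0.00073). Leaving out any 1 mouse kept both calls, with log2 fold changes of 1.18 to 1.62 with Ova and 1.19 to 1.71 with IC.

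**Figure D2:**
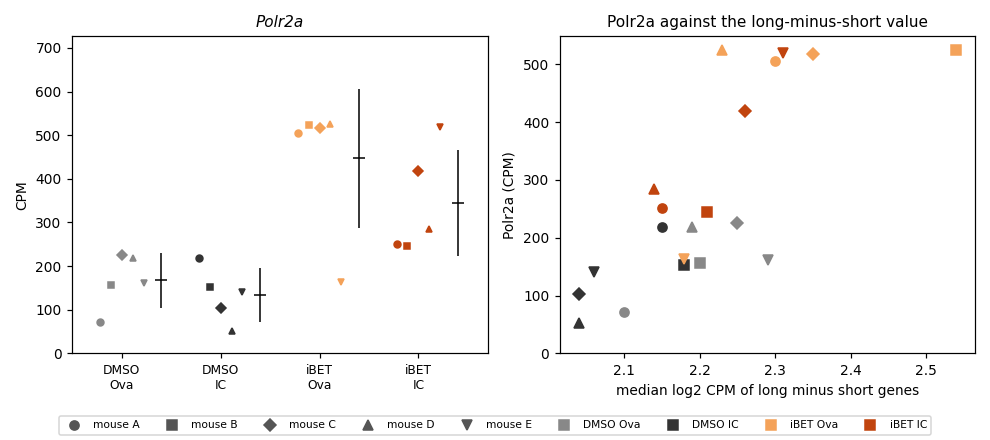
The left panel shows Polr2a in CPM per library by group, with the mean and SD beside the points, and the right panel shows the same values against the long-minus-short value of each library (log2 CPM). Marker shapes are mice. In iBET Ova 4 libraries lie between 506 and 525 CPM and mouse E lies at 163 CPM.

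The other subunits of Pol II divided. Both genes of the stalk that binds emerging RNA rose under both stimuli, Polr2g by 0.32 and 0.31 on the log2 scale (adjusted p = 0.000224 and 0.00029) and Polr2d by 0.29 and 0.22 (adjusted p = 0.00806 and 0.0377). Of the remaining Pol II-specific core genes Polr2j rose (log2 fold change 0.36 with Ova and 0.43 with IC) and Polr2i fell (-0.38 and -0.28). Polr2c fell with IC (-0.42, adjusted p = 0.000397), and with Ova its value of -0.19 passed only with the mouse as a block (adjusted p = 0.0194, against 0.0677 without). Part of the exon bases of Polr2j (15.9%), Polr2i (26.8%) and Polr2c (18.1%) is shared with a gene on the opposite strand, and as the strand setting of the counting is not given in the sources used here, these 3 are uncertain. The same holds for Med10 (92.8%), Med20 (21.4%) and Med7 (21.2%), described below, which share exon bases with opposite-strand genes that are not in the count table. The IC call of Polr2i was also lost with the long-minus-short covariate.

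Among the 5 subunits that Pol II shares with Pol I and Pol III, 1 rose and 4 did not pass, where 27.7% of all genes rose with Ova and 27.1% with IC. Polr2l (RPB10, a small zinc-binding subunit; chr7:141471860-141475132) was at 17, 12.7, 15.2, 15.9 and 14.1 CPM in mice A to E with DMSO Ova and at 25.4, 17.7, 24.3, 24.6 and 27.5 CPM with iBET Ova. In DMSO IC its level was 20, 16.7, 19, 17.7 and 19 CPM, and in iBET IC it was 28.7, 25.2, 27.4, 26.1 and 28.1 CPM. The groups did not overlap under either stimulus, although mouse B with iBET Ova stood only just above the highest DMSO Ova library. The log2 fold change was 0.67 with Ova (SE 0.0983, adjusted p = 8.21e-06) and 0.55 with IC (SE 0.0974, adjusted p = 7.17e-05). The Ova call was lost under 1 of 15 alternatives, over which the value ran from 0.53 to 0.81. For Polr2e, Polr2f, Polr2h and Polr2k the log2 fold changes lay between -0.12 and 0.11 under both stimuli.

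Polr2m, which encodes Gdown1, a protein that associates with Pol II and makes its response to activators depend on Mediator, fell (chr9:71478437-71485935). It was at 78.1, 76.6, 90.3, 87.9 and 87.9 CPM in mice A to E with DMSO Ova and at 50.1, 51.1, 50.8, 52.1 and 47.9 CPM with iBET Ova. With DMSO IC it was at 85.9, 85.1, 88.3, 87.2 and 91.5 CPM, and with iBET IC at 48.6, 51.9, 51.1, 51.4 and 57.6 CPM. Each DMSO library lay above each iBET library. This gave a log2 fold change of -0.74 with Ova (SE 0.056, adjusted p = 1.32e-09) and -0.75 with IC (SE 0.056, adjusted p = 1e-09), the smallest adjusted p of the Pol II genes.

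In the core of Mediator, the middle module had 4 members that rose and 1 that fell of 9 under each stimulus. Of all genes 27.7% rose and 28.9% fell with Ova, and 27.1% and 29.0% with IC, and the module was not tested against them. The largest rise was that of Med31 (chr11:72211724-72215592), a small and highly conserved subunit. It was at 3.25, 2.67, 2.83, 3.22 and 2.92 CPM in mice A to E with DMSO Ova and at 7.23, 5.86, 5.95, 5.58 and 6.95 CPM with iBET Ova. Its DMSO IC libraries held 3.23, 3.36, 3.55, 2.83 and 2.52 CPM, and those of iBET IC 7.55, 7.88, 6.42, 7.63 and 7.17 CPM. The groups were widely apart, with log2 fold changes of 1.08 with Ova (SE 0.109, adjusted p = 6.81e-08) and 1.25 with IC (SE 0.109, adjusted p = 8.84e-09). Its exons share 26.3% of their bases with the noncoding gene 4930563E22Rik on the opposite strand, so its counts carry the same uncertainty of strand.

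Med4 (chr14:73510025-73518849), a middle subunit found in the core complex, also rose. Its mean was 12.1 ± 0.755 CPM in DMSO Ova and 17.1 ± 2.09 CPM in iBET Ova, and 13.1 ± 0.709 CPM in DMSO IC and 19.7 ± 1.97 CPM in iBET IC (SD, n = 5). The groups did not overlap, with a log2 fold change of 0.50 with Ova (SE 0.0863, adjusted p = 6.14e-05) and 0.59 with IC (SE 0.0857, adjusted p = 8.42e-06). The other middle members that rose were Med26, a docking site for elongation factors (0.44 and 0.32), and Med1, the subunit bound by nuclear receptors (0.27 and 0.20). Med9 fell (-0.30 and -0.24). Med7 had 0.22 with Ova and 0.24 with IC, and the IC value passed only with the mouse as a block (adjusted p = 0.0345, against 0.0776 without). With the long-minus-short covariate the IC calls of Med1 and Med9 were lost and, among members not called otherwise, Med11 and Med29 passed with Ova and Med10, Med11 and Polr2h with IC. Med10, Med19 and Med21 were not called, with log2 fold changes between -0.09 and 0.12.

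MED14, the backbone that joins the modules, is encoded by Med14 on the X chromosome (chrX:12675369-12762073). Med14 was at 52.8, 54.5, 66.5, 63.8 and 60.1 CPM in mice A to E with DMSO Ova and at 74.6, 86.1, 86.7, 76 and 61.9 CPM with iBET Ova. With DMSO IC it was at 55.3, 51.6, 52.1, 46.2 and 53.8 CPM, and with iBET IC at 57.2, 59.3, 69, 64.5 and 68.1 CPM. The groups overlapped with Ova, where mouse E again had nearly equal levels, and not with IC. The log2 fold change was 0.37 with Ova (SE 0.0892, adjusted p = 0.00147) and 0.30 with IC (SE 0.0894, adjusted p = 0.00824). Med14 has 8763 exon bases, and with the long-minus-short covariate its IC value was 0.16 (adjusted p = 0.0872). Without mouse D the IC value was 0.25 (adjusted p = 0.0598).

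In the head module 2 of 7 members rose and 2 fell with Ova, and 3 rose and 2 fell with IC. These counts are near the shares of all genes, of which 27.7% were higher and 28.9% lower with Ova, and 27.1% and 29.0% with IC. Med8 (chr4:118409337-118415782), which anchors part of the head, was at 40.4, 35.5, 33.2, 35.1 and 38.3 CPM in mice A to E with DMSO Ova and at 24.1, 26.8, 22.4, 21.8 and 26.2 CPM with iBET Ova. With DMSO IC it was at 37.8, 40, 40.8, 35.7 and 41.1 CPM, and with iBET IC at 27.1, 23.6, 24.1, 24.1 and 21.1 CPM. Within each stimulus the iBET libraries lay below the DMSO libraries, and the log2 fold change was -0.59 with Ova (SE 0.0763, adjusted p = 1.91e-06) and -0.70 with IC (SE 0.0763, adjusted p = 1.74e-07). Med6 fell as well (-0.40 and -0.39), while Med22 (0.50 and 0.56) and Med17, the scaffold of the head (0.18 and 0.16), rose. Med20 was 0.05 with Ova and rose by 0.18 with IC (adjusted p = 0.0383), a call that was lost without mouse A (adjusted p = 0.0821), C (0.101) or D (0.151). Med11 and Med18 were not called.

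Of the 5 tail genes, which receive most signals from DNA-bound activators, 1 was called under each stimulus, against 56.6% of all genes with Ova and 56.1% with IC. Med24 (chr11:98704591-98729435) was at 26.6, 26.7, 28.1, 28.5 and 26.2 CPM in mice A to E with DMSO Ova and at 13.2, 13.1, 11.8, 12.1 and 13.8 CPM with iBET Ova. The DMSO IC libraries stood at 26.7, 24.2, 22.9, 24.1 and 28.1 CPM, and those of iBET IC at 11.8, 10.9, 12.8, 11 and 13.1 CPM. The highest iBET library lay far below the lowest DMSO library under both stimuli. The change on the log2 scale was -1.09 with Ova (SE 0.0709, adjusted p = 1.58e-10) and -1.08 with IC (SE 0.071, adjusted p = 1.7e-10), a level of 0.471 and 0.473 times that with DMSO, and these were the smallest adjusted p values among the members. Its tail neighbours Med15, Med16 and Med23 had log2 fold changes between -0.05 and 0.22 and were not called. Med25 had 0.25 with Ova and 0.26 with IC, which passed only with the mouse as a block (adjusted p = 0.0112 and 0.0076, against 0.0943 and 0.0826 without).

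Med27, Med28, Med29 and Med30 are placed in the head or the tail depending on the source. Med30 (chr15:52712408-52730564) fell from 8.72 ± 0.523 CPM to 6.25 ± 0.828 CPM with Ova and from 8.12 ± 0.741 CPM to 5.03 ± 0.433 CPM with IC (SD, n = 5), without overlap. Its log2 fold change was -0.48 with Ova (SE 0.096, adjusted p = 0.000264) and -0.69 with IC (SE 0.0972, adjusted p = 5.34e-06). Med27 rose (0.32 and 0.26), Med28 was -0.12 with Ova and fell by 0.22 with IC (adjusted p = 0.00497), a call lost without mouse C (adjusted p = 0.087), and Med29 was not called.

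**Figure D3:**
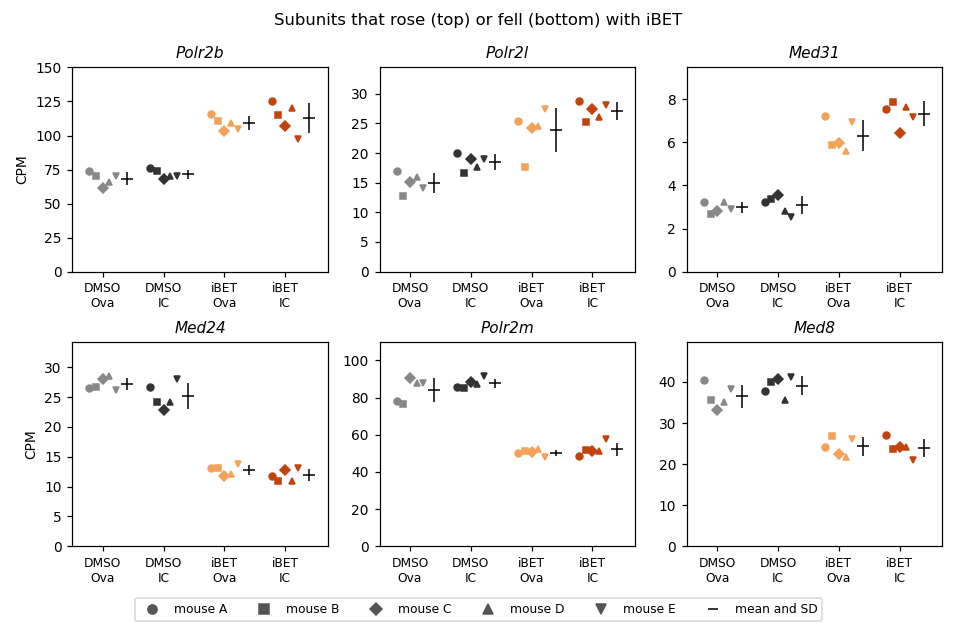
CPM is shown per library by group for 3 members that rose with iBET (top) and 3 that fell (bottom), with marker shapes for mice and the mean and SD at the right of each group. For Polr2b, Med31, Med24, Polr2m and Med8 the iBET and DMSO libraries stand clearly apart, and for Polr2l mouse B with iBET Ova (17.7 CPM) is the nearest to the DMSO libraries.

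The kinase module, which can dissociate from Mediator and can block its contact with Pol II, had members that fell and none that rose. With Ova Cdk19, Med12 and Med12l fell, and with IC Ccnc, Med12 and Med12l fell, so 3 of 7 passed under each stimulus. Of all genes 28.9% were lower with Ova and 29.0% with IC, and 27.7% and 27.1% were higher. The module was not tested against them. The median log2 fold change of the 7 was -0.16 with Ova and -0.15 with IC. Reads of near-identical stretches in Cdk8 and Cdk19, Med12 and Med12l, or Med13 and Med13l may have been split between the paralogs or left out, since the handling of such reads is not given in the sources used here.

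Med12 (chrX:101274030-101297465), which activates the kinase through cyclin C, was at 59.7, 72.3, 85.9, 83.2 and 74 CPM in mice A to E with DMSO Ova and at 44.6, 53.1, 51, 48.9 and 42.2 CPM with iBET Ova. With DMSO IC it was at 70.4, 67.3, 61.6, 53.7 and 70.2 CPM, and with iBET IC at 36, 36.5, 45.4, 36.3 and 48.3 CPM. The groups did not overlap under either stimulus. Its log2 fold change was -0.65 with Ova (SE 0.109, adjusted p = 4.53e-05) and -0.68 with IC (SE 0.109, adjusted p = 2.79e-05).

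Its paralog Med12l (chr3:59005825-59318682) was present at a trace. It was at 1.89, 1.78, 2.4, 1.47 and 1.9 CPM with DMSO Ova and at 0.768, 1.03, 0.525, 0.18 and 0.921 CPM with iBET Ova, and at 1.96, 2.04, 2.47, 0.958 and 1.5 CPM with DMSO IC and 0.37, 0.644, 0.466, 0.477 and 0.389 CPM with iBET IC. These levels rest on 23 to 53 counts per library with DMSO and on 4 to 22 with iBET. Within each stimulus every iBET library was below every DMSO library, and the log2 fold change was -1.45 with Ova (SE 0.313, adjusted p = 0.000563) and -1.90 with IC (SE 0.326, adjusted p = 5.42e-05). Of its exon bases 15.3% lie opposite Igsf10, and several purinergic receptor genes lie within its span on the other strand, so this value is uncertain in the way described for Polr2i.

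Cdk8 and Cdk19 encode the alternative kinases. Per kilobase of exon Cdk19 was the higher in DMSO Ova, at 8.73 ± 1.02 CPM per kb against 3.06 ± 0.0623 CPM per kb for Cdk8. Cdk19 was at 48.9, 59.5, 45.7, 54.8 and 46.3 CPM in mice A to E with DMSO Ova and at 40.5, 42.7, 39.6, 45.2 and 38.8 CPM with iBET Ova. The groups were adjacent but did not overlap, and the fall was 0.30 on the log2 scale (log2 fold change -0.30, SE 0.077, adjusted p = 0.00232). For Cdk19 this call was lost under 1 of 15 alternatives, over which the log2 fold change ran from -0.38 to -0.20. With IC its log2 fold change of -0.15 did not pass (adjusted p = 0.0992), but passed with the mouse as a block (adjusted p = 0.0169). Cdk8 had mean levels of 30.1 CPM with DMSO and 28.9 CPM with iBET under Ova, and of 30.3 and 28.4 CPM under IC, and its log2 fold changes of -0.06 and -0.09 did not pass (adjusted p = 0.531 and 0.316).

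Ccnc (cyclin C) had mean levels of 25.1 ± 2.07 CPM with DMSO Ova and 22.4 ± 2.36 CPM with iBET Ova, and its log2 fold change of -0.16 did not pass (adjusted p = 0.163). With IC it was at 26.3, 28.8, 26.4, 30.5 and 19.9 CPM with DMSO and at 23, 23.5, 21.5, 23.3 and 20.5 CPM with iBET. Mouse E went the other way, and the log2 fold change was -0.24 (adjusted p = 0.044). Without mouse A, B, C or D it was -0.25, -0.20, -0.21 and -0.20, and with the long-minus-short covariate -0.25, each no longer past the threshold (adjusted p = 0.0784, 0.138, 0.149, 0.145 and 0.0586). Med13 and Med13l, the links between the kinase module and the core, were not called without further adjustment. Med13 had log2 fold changes of 0.16 and 0.06 (adjusted p = 0.163 and 0.612), and passed with Ova without mouse E (0.26, adjusted p = 0.0295), in mice A and B only (0.44, adjusted p = 0.0275) and with surrogate variables, estimates of hidden differences between libraries, as covariates (0.14, adjusted p = 0.0415). Med13l varied between 125 and 293 CPM over all libraries, with log2 fold changes of -0.11 and -0.09 (SE 0.211 each), and passed with IC under surrogate variables (-0.21, adjusted p = 0.000171).

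The paralogs were also set against each other within each mouse, as the difference of their log2 ratios of iBET to DMSO averaged over Ova and IC. Med12 minus Med12l was 0.94 ± 0.397 (SD, n = 5 mice), Med13 minus Med13l was 0.19 ± 0.0429 and Cdk8 minus Cdk19 was 0.14 ± 0.2, and each difference was above 0 in 5 of 5 mice. For Cdk8 and Cdk19 the single mice ranged from 0.01 to 0.50, and without mouse B the mean was 0.05. The exact two-sided sign-flip permutation test gave p = 0.062 for each of the 3 pairs (Benjamini-Hochberg adjusted p = 0.062), which is the smallest value that 5 mice allow, so none could pass 0.05.

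**Figure D4:**
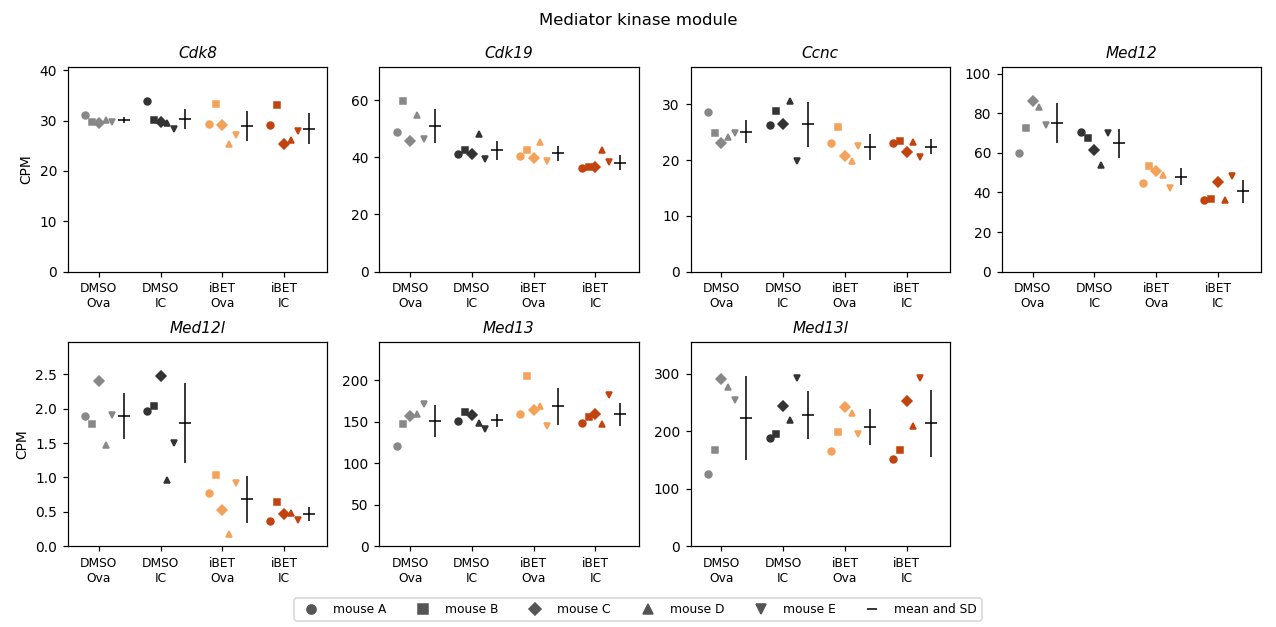
CPM is shown per library by group for the 7 genes of the kinase module, with marker shapes for mice and the mean and SD at the right of each group. Med12 and Med12l are lower with iBET in all mice, Cdk8 lies between 25.4 and 33.8 CPM throughout, and Med13l spreads from 125 to 293 CPM.

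The second comparison asked what IC does relative to Ova. With DMSO, 6 of the 46 members were called (13%, against 20.3% of all genes), 4 higher (9.59% of genes were) and 2 lower (10.7% of genes). With iBET, 3 were called (6.52%, against 11.8%), 1 higher (5.19% of genes) and 2 lower (6.63% of genes). Libraries of IC and Ova did not overlap for 4 members with DMSO (8.7%, against 12.4% of genes) and for 0 with iBET (against 10.0%). Leaving out 1 mouse gave 1 to 5 called members with DMSO (1 without mouse C, 2 without E, 3 without A or D, 5 without B) and 0 or 1 with iBET (0 without A, C or D). With the mouse as a block the counts were 9 and 8, all of the first 6 and 3 included. The added ones with DMSO were Med23 (adjusted p = 0.00574), Polr2g (0.00995) and Med17 (0.0439), and with iBET Med23 (0.0186), Med4 (0.0257), Polr2g (0.0183), Med22 (0.0147) and Polr2l (0.0365), all higher with IC. Scaling by library size alone placed the median of all genes at -0.13 with DMSO and -0.12 with iBET, and then 0 members were higher and 6 lower in each, with 582 and 313 genes higher and 2593 and 2030 lower in place of 1196 and 647 higher and 1335 and 827 lower. Under that scaling 17 members with DMSO and 15 with iBET had the other sign, and none of them was called before.

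The largest rises with IC were small. Med15, the tail subunit through which several activators act, was at 70.8, 79.5, 88.2, 84.2 and 75.7 CPM in mice A to E with DMSO Ova and at 96.3, 98.1, 90.7, 94.6 and 111 CPM with DMSO IC. With iBET Ova it was at 82.3, 76.5, 88.7, 92.6 and 83.3 CPM, and with iBET IC at 93.5, 91.3, 108, 98.2 and 115 CPM. Every mouse had more Med15 with IC under both DMSO and iBET, without overlap of the DMSO groups. The log2 fold change was 0.30 with DMSO (SE 0.0777, adjusted p = 0.0105) and 0.26 with iBET (SE 0.0776, adjusted p = 0.0352), and Med15 was the only member called in both without the block. With the mouse as a block Med23, Polr2g and Polr2l were also called in both (Polr2l adjusted p = 0.002 with DMSO and 0.0365 with iBET). Without mouse E the DMSO call was lost (0.23, adjusted p = 0.0636), and the iBET call was lost without any 1 of the 5 mice (adjusted p between 0.0653 and 0.126) and with the long-minus-short covariate (0.27, adjusted p = 0.0574).

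Med28 was at 36.8, 34.7, 34.3, 33.9 and 36.5 CPM with DMSO Ova and at 39.7, 39.4, 47.4, 39.6 and 44.1 CPM with DMSO IC. The groups did not overlap, and the rise was 0.25 on the log2 scale (SE 0.063, adjusted p = 0.00785), a call lost without mouse C (0.21, adjusted p = 0.0819). Polr2l rose by 0.30 (adjusted p = 0.0367), a call that was lost without mouse A (adjusted p = 0.054), C (0.155), D (0.0869) or E (0.127). Polr2c, chosen for mention after its values were seen as the remaining called member, rose by 0.26 (adjusted p = 0.0411), from 23.9 to 27 CPM over the DMSO Ova libraries to 28.4 to 34 CPM over those of DMSO IC. The calls of Polr2l and Polr2c were also lost with the long-minus-short covariate. Cdk19 fell by 0.27 with IC (adjusted p = 0.019), from 51 ± 5.94 CPM to 42.4 ± 3.3 CPM, a call lost without mouse A (adjusted p = 0.0518), B (0.119) or C (0.0635). Med20 fell by 0.24 (adjusted p = 0.0235), from 23.3 ± 2.21 CPM to 19.7 ± 0.681 CPM, a call lost without mouse A (adjusted p = 0.0765), C (0.137), D (0.0911) or E (0.063).

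With iBET, Med30 and Med14 were lower with IC than with Ova. Med30 fell by 0.31 (adjusted p = 0.0429), from 6.25 ± 0.828 CPM to 5.03 ± 0.433 CPM, and Med14 fell by 0.28 (adjusted p = 0.049), from 77 ± 10.2 CPM to 63.6 ± 5.22 CPM (SD, n = 5). The groups overlapped for both. The Med30 call was lost without mouse A (adjusted p = 0.131), C (0.241), D (0.25) or E (0.0653), the Med14 call without mouse A (adjusted p = 0.134), B (0.237), C (0.141) or D (0.128), and the Med14 value was -0.16 with the long-minus-short covariate (adjusted p = 0.238).

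**Figure D5:**
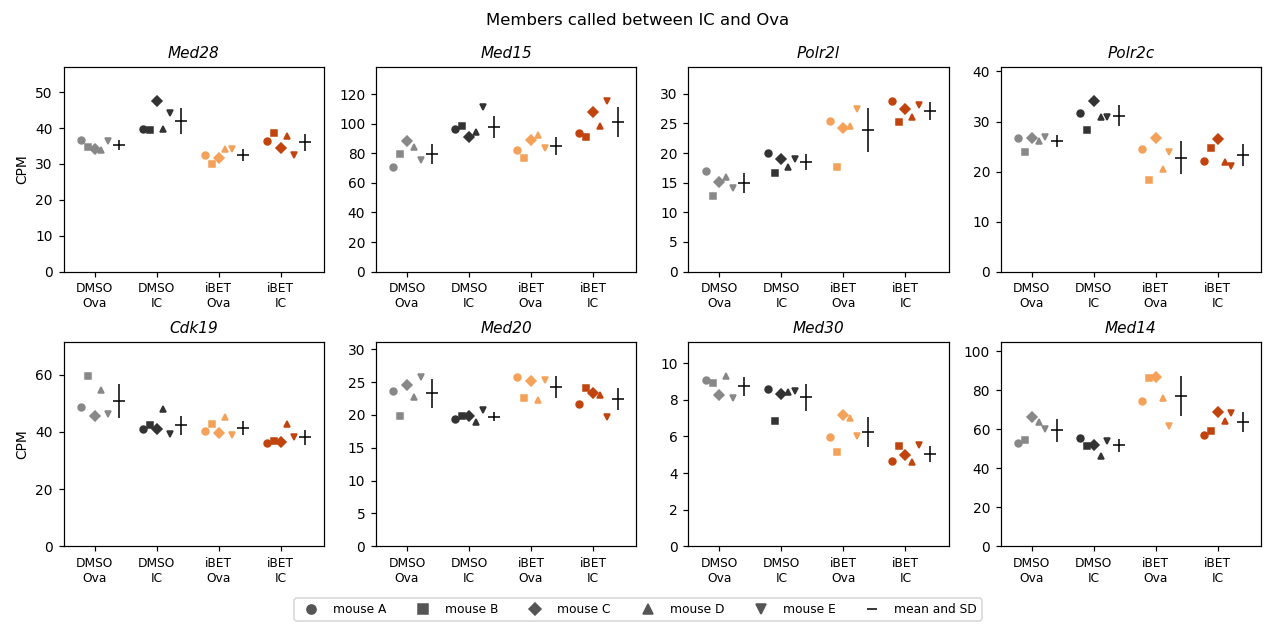
CPM is shown per library by group for the 8 members called between IC and Ova with DMSO or with iBET, with marker shapes for mice and the mean and SD at the right of each group. Med15 is higher with IC in both pairs of groups, and the DMSO groups of Med28 and Polr2c stand apart.

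The third comparison asked whether the iBET effect differed between IC and Ova. No member passed: edgeR called 0 of 46 (0.0401% of all genes were called, 5 genes), 0 had an unadjusted p under 0.05 (4.36% of all genes had), and DESeq2 called 0 members. The smallest unadjusted p among the members was 0.0812, that of Polr2c, whose effect of iBET was lower by 0.23 on the log2 scale with IC (SE 0.124). For Cdk19, called with Ova and not with IC, the interaction was 0.15 (SE 0.109, unadjusted p = 0.185), so a difference between the stimuli is not shown.

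Other transcription machinery was described beside the members from lists assembled by function. Of 31 general transcription factor genes 17 rose and 4 fell with iBET under Ova, and 15 and 5 under IC, with medians of 0.18 and 0.17. Over all genes 27.7% rose and 28.9% fell under Ova, and 27.1% and 29.0% under IC, against which the counts of all 4 lists are to be read. Taf13 and Taf5, subunits of the promoter-binding TFIID, rose by 1.36 and 1.11 with Ova and by 1.39 and 1.17 with IC, and Gtf2h2, a subunit of TFIIH, fell by 1.19 and 1.16. Of 23 tested pausing and elongation factor genes 14 rose and 3 fell under Ova, and 12 and 3 under IC, with medians of 0.28 and 0.32. In this list Ctr9 and Paf1, of the PAF1 elongation complex, rose by 1.55 and 1.06 with Ova and by 1.65 and 1.10 with IC, and Eaf2, a partner of the ELL elongation factors, rose from 0.179 to 1.86 CPM with Ova and from 0.26 to 2.15 CPM with IC. Of 14 genes for Integrator, which ends transcription at paused Pol II, 8 rose and 3 fell under Ova, and 9 and 4 under IC, with medians of 0.20 and 0.23. Here Ints7 rose by 0.86 and 1.07, Ints3 fell by 1.25 and 1.05, and Ints6 fell by 0.77 and 0.75. Of 19 genes specific to Pol I or Pol III 7 rose and 1 fell under Ova, and 9 and 3 under IC, with medians of 0.09 and 0.21, among them Polr3g (0.94 and 0.78), Polr3b (0.43 and 0.69) and Cd3eap (0.38 and 0.56). In this last list the number that fell under Ova was 4 with the mouse as a block and 3 with the block in DESeq2, and under IC it was 1 without mouse C or without mouse E. The other lists moved too. With mice A and B only, 10 general transcription factor genes rose and 1 pausing and elongation factor gene fell under Ova. By library size alone, 12 general transcription factor genes rose under Ova and 11 under IC, and 6 Integrator genes rose under each. The medians of these lists stand beside medians of -0.00 and -0.01 over all genes and 0.04 and 0.07 for the members, and no list was tested against the others.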

How the data were processed

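RNA was measured in 20 BMDC libraries, made with a stranded total RNA kit for low input. Per the methods and the submitters' processing notes, the authors trimmed reads with Trim Galore, aligned them to mm10 with HISAT2 and counted them with featureCounts. They deposited raw counts per gene, and also size-factor scaled counts that were not used here. Versions, annotation and strand setting are not given in the sources used here.

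Groups and mice were taken from the labels. Genes kept by filterByExpr (12465) received TMM scaling, and edgeR 4.0.16 (R 4.3.3) fitted a quasi-likelihood model whose single factor was the group. P-values were adjusted by Benjamini-Hochberg over all genes tested. Log2 CPM used a prior count of 2. Scripts were tested on simulated data. Libraries of one mouse come from the same animal, and their deviations from the group means correlated at 0.524 on average (lowest 0.307 in 30 pairs), against -0.127 between mice. As group means were subtracted, a positive value within mice forces a negative one between mice, so the second is no separate evidence. Libraries of one group differed by more than counting error (chi-square per degree of freedom at least 12.54 in 40 pairs), so errors are SDs between mice or SEs of the fit. That fit has no mouse term, so its SEs and p-values leave out the pairing. With Ova, the SE of Polr2b was 0.0661 without and 0.0479 with the mouse as a block, and that of Polr2a 0.371 and 0.383. A median library of 21764663 counts sets the depth. Positions and exon lengths are from GENCODE M21 (GRCm38).

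Alternatives were the mouse as a replicate block, DESeq2 1.42.0 with and without that block, DESeq2 size factors (RLE), library size only, no filter, 3 surrogate variables (sva 3.50.0), mice A and B or mice C, D and E only, and each mouse left out. The long-minus-short covariate was added after seeing the data. Members described in full are the kinase module, Polr2a, the 5 largest rises and 5 largest falls by the mean of both iBET effects among members called under both stimuli, and up to 5 members with the smallest adjusted p for IC against Ova. From each other list at most 3 genes with the largest mean effect are named. Other members are named where a count includes them, after their values were seen. The members and lists were chosen with earlier results of these data known. One further marker list is not reported here.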

Additional observations from a re-analysis of the deposited data

Results flagged for a closer look

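Over the 20 members described in full, 80 sets of 5 libraries were searched for a value whose gap to its nearest neighbour exceeded 0.71 of the range, a rule that by chance marks about 1 in 20 sets. It marked 2 values. Polr2a in iBET Ova was at 163 CPM in mouse E, whereas the other mice were at 506 to 525 CPM (gap 0.945 of the range). The members described in full with more exon bases than Polr2a were divided in the same library. Med14, at 61.9 CPM, Med13, at 145 CPM, and Med12, at 42.2 CPM, were also the lowest of their group. Med13l, Med12l, Med15, Cdk8 and Med20 were not. The long-minus-short value of this library, 2.18, was the lowest of iBET Ova. The part of this library property in the Polr2a value was not tested beyond the covariate given with Polr2a. Med30 in DMSO IC was at 6.81 CPM in mouse B, against 8.31 to 8.59 CPM in the other mice (gap 0.842 of the range).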

How the results depend on the processing

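Of 48 values for single members, 24 kept their direction and side of the threshold under all 15 alternatives, among them both iBET effects of Polr2b, Med31, Med4, Med24, Polr2m, Med8, Med12 and Med12l. Of 720 recomputed values 627 kept both, 73 no longer passed, 9 newly passed and 11 changed sign. All 11 were in values that were not called without further adjustment, among them those of Med13 (0.16) and Med13l (-0.11) with Ova. With mice A and B only, Cdk8 was 0.0362 and Med13l 0.31 with Ova, and Med13 was -0.0175 and Med15 -0.0547 with IC. Med13 was -0.00241 with Ova and -0.11 with IC under the long-minus-short covariate, and -0.0185 with IC without mouse E (up to 0.11 without another mouse). Med13l was 0.0218 with IC in mice C, D and E, Med15 was -0.00151 with IC by library size and -0.0103 with surrogate variables, and Med20 was -0.00174 with Ova by library size.

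With mice A and B only, 9 members were higher with iBET under Ova and 7 lower under IC. All genes called with iBET were then 5484 under Ova in place of 7057, and 5232 under IC in place of 6990. Leaving out 1 mouse gave 9 to 14 higher under IC. Called members for IC against Ova with DMSO were 0 in mice A and B, 10 in mice C, D and E and 1 to 5 with 1 mouse left out. With iBET they were 8 with the replicate block, in edgeR and in DESeq2, 6 by library size, 7 with surrogate variables, 0 without the filter, 1 in either set of mice, 1 with the covariate and 0 or 1 with 1 mouse left out. Genes called for IC against Ova with DMSO (2531) were 4755 with the replicate block, 4611 with it in DESeq2, 4062 with surrogate variables, 500 in mice A and B and 1180 to 2477 with 1 mouse left out. With iBET (1474) they were 3601, 3594, 3102, 296 and 643 to 1177 in the same order, and 2343 by library size. For the interaction (5) they were 102 with the replicate block, 25 in DESeq2, 184 in DESeq2 with the block, 47 with surrogate variables, 0 in mice A and B, 13 in mice C, D and E and 0 to 2 with 1 mouse left out. Called members of the interaction were 0 under all 15 alternatives. Beside the calls given with the results, the paired fit changed no other call of a member. Causes were not tested.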
